A study of Capra hircus with 2 samples.

Results

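The miRNAs miR-183, miR-96 and miR-182 form a cluster of neighbouring hairpins, and all 3 were examined here among the 346 conserved miRNAs that the study listed for the mammary gland of the dairy goat (Capra hircus). The members were chosen by name from that list, with their read counts at either stage already known. Their levels and changes are therefore given as a description with no test. Small RNA was sequenced in 2 libraries, 1 from dry period mammary gland (the D library) and 1 from mammary gland at peak lactation (the P library). Each library was made from material pooled from 3 Xinong Saanen goats that were, by the study's text, 2.5 years old. The sample labels give 75 days after lambing for the dry period and 320 days for peak lactation, and the study's text gives these days the other way round, so the stage names were used and the days were not. With 1 pooled library per stage, no spread between animals could be measured. All intervals below are 95% Wilson intervals and cover the sampling of reads alone.

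In mammals the 3 miRNAs are cut from a shared primary transcript. They are best known from sensory cells, such as the hair cells of the inner ear and the photoreceptors of the retina, where they are abundant and needed for normal differentiation, and they are also expressed in many epithelia. A miRNA finds its target mRNAs mainly through its seed, bases 2 to 8 from the 5′ end, and related seeds give related sets of targets. In the RefSeq annotation of the goat assembly ARS1.2, the genes MIR183, MIR96 and MIR182 follow each other in this order with no other annotated gene between them, and they lie between the genes UBE2H and NRF1.

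The listed mature sequences are shown because the seeds differ by single bases, with the seed in capitals. The sequence of miR-1271, the only other listed miRNA with bases 2 to 7 of a member, is added for comparison.
miR-183: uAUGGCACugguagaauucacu
miR-96: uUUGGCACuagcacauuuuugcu
miR-182: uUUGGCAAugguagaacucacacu
miR-1271: cUUGGCACcuaguaaguac

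The seeds of miR-183 and miR-96 shared 6 of 7 bases and differed at position 2. The seeds of miR-96 and miR-182 also shared 6 bases and differed at position 8, while those of miR-183 and miR-182 shared 5 and differed at positions 2 and 8. All 3 hold the letters UGGCA within their first 8 bases, as do 6 of the 346 listed miRNAs (1.73%). Over the whole sequence, seed included, miR-183 and miR-182 were the closest pair. They had the same base at 18 of 22 positions, against 13 of 22 for miR-183 and miR-96 and 12 of 23 for miR-96 and miR-182.

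A tag, that is, a distinct clean read sequence with its number of reads, was counted for a member when it was identical to the listed sequence for at least 18 nt from the 5′ end. Counts were expressed as reads per 1000000 clean reads (RPM), out of 14851375 in the D library and 15712891 in the P library. At this depth 3 reads, taken as the limit that a count of 0 allows, correspond to 0.20 and 0.19 RPM.

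The most abundant member was miR-182, which had 489 reads in the D library (32.9 RPM, interval 30.1 to 36.0) and 36 reads in the P library (2.29 RPM, interval 1.66 to 3.17). For miR-183, 101 reads (6.80 RPM, interval 5.60 to 8.26) and 5 reads (0.32 RPM, interval 0.14 to 0.74) were counted. For miR-96, 75 reads (5.05 RPM, interval 4.03 to 6.33) and 4 reads (0.25 RPM, interval 0.10 to 0.65) were counted. The intervals of the 2 libraries were apart for each member. Within a library, miR-182 stood above the others, whereas the intervals of miR-183 and miR-96 overlapped in both libraries. Their counts at peak lactation were only just above the 3 reads that a count of 0 allows. None of the members was an abundant miRNA of the gland. In the D library miR-182 ranked 126 by reads, miR-183 ranked 189 and miR-96 ranked 202 of the 346, and at peak lactation they ranked 182, 252 and 256.

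**Figure D1:**
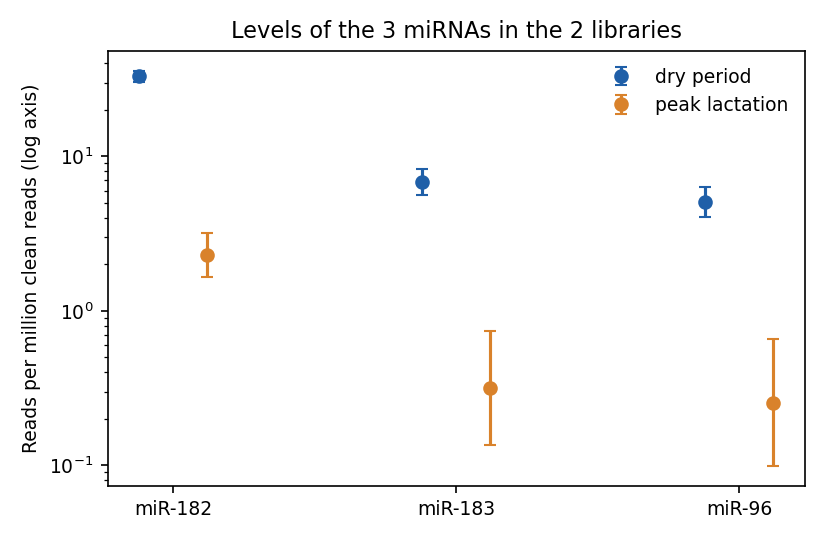
Reads per 1000000 clean reads (vertical log axis) of miR-182, miR-183 and miR-96 in the dry period library (blue) and the peak lactation library (orange), 1 library per stage. Points are the measured values and bars the 95% Wilson intervals, which lie apart between the libraries for each miRNA and overlap between miR-183 and miR-96.

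The log2 fold change, peak lactation over dry period, was -4.42 for miR-183 (interval -5.67 to -3.16), -4.31 for miR-96 (interval -5.71 to -2.91) and -3.85 for miR-182 (interval -4.33 to -3.36). Summed over the cluster, 665 reads in the D library stood against 45 at peak lactation, a log2 fold change of -3.97 (interval -4.40 to -3.53). This was a 15.6-fold lower level (interval 11.6 to 21.1). A lower value was common among the conserved miRNAs. Of the 257 that reached 1 RPM in at least 1 library, 181 (70.4%) were lower at peak lactation by more than 1 on the log2 scale, so passing this limit by all 3 members is near the background. The median over the 257 was -1.44, with quartiles of -2.15 and -0.92. The members took the ranks 5, 6 and 7 from the lowest value, next to each other. Those below them were miR-34a, miR-181c and miR-181d, and miR-1296 with only 23 reads and 1 read. The intervals of the members overlapped one another, so their order among themselves was not resolved. Of the 111 miRNAs with 50 to 1000 reads in the D library, a range set around the members' own counts, 80 were lower by more than 1 and the median was -1.52. In this range 5 miRNAs, the 3 members included, had values at or below that of miR-182. The range was set on D reads alone. Moreover, miR-183 and miR-96 reached 1 RPM only in the D library (0.32 and 0.25 RPM at peak lactation). These ranks and counts are therefore description and do not show that the fall was unusual.

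**Figure D2:**
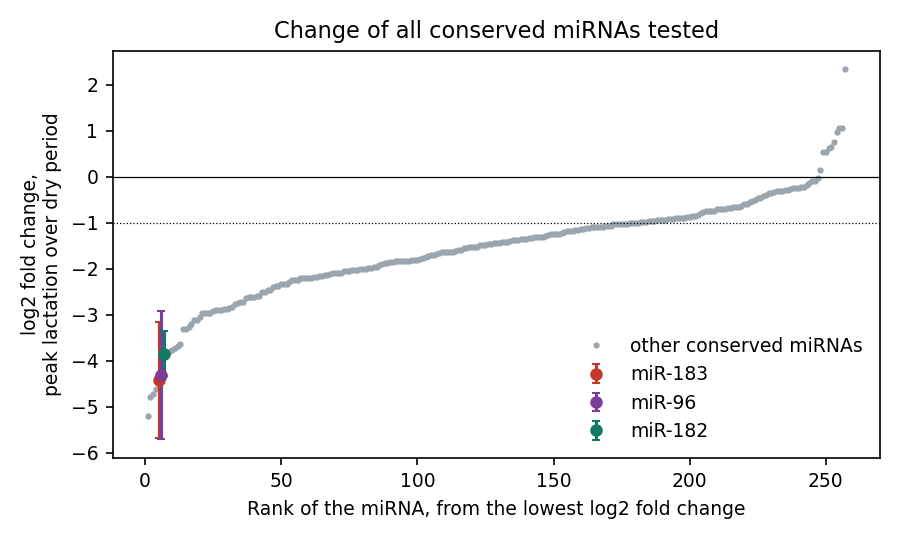
The log2 fold change (peak lactation over dry period, vertical axis) of the 257 conserved miRNAs tested, ordered from the lowest. Grey points are other miRNAs, coloured points with 95% intervals of read sampling are miR-183, miR-96 and miR-182 at ranks 5, 6 and 7, and the dotted line marks -1.

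The size of these changes depended on the denominator. Reads of conserved miRNAs made up 61.1% of clean reads in the D library and 14.4% at peak lactation, a log2 ratio of -2.08. This ratio leans on a few abundant miRNAs. In the D library let-7a and let-7f had 2628486 and 2718302 of the 9081514 conserved miRNA reads. At peak lactation they had 359477 and 678325 of 2266176. Per conserved miRNA read, the median of the 257 moved up by 2.08 to 0.64 so that 19 of them (7.39%) were lower by more than 1 and 93 higher, in place of 181 lower and 3 higher. The values of the members were then -2.33 for miR-183, -2.23 for miR-96 and -1.76 for miR-182, still past that limit. The cluster held 73.2 of every 1000000 conserved miRNA reads in the D library and 19.9 at peak lactation. With DESeq2 size factors, which put the median at -0.04 with 47 lower and 30 higher, the members stood at -3.02, -2.91 and -2.45.

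The members' shares of the cluster reads did not separate between the libraries. In the D library miR-182 held 73.5% of the 665 reads (interval 70.1 to 76.7%), miR-183 15.2% (12.7 to 18.1%) and miR-96 11.3% (9.09 to 13.9%). Of the 45 reads at peak lactation, miR-182 held 80.0% (66.2 to 89.1%), miR-183 11.1% (4.84 to 23.5%) and miR-96 8.89% (3.51 to 20.7%). The interval of each share at peak lactation contained the share of the dry period. The log2 fold changes of the 3 members spanned 0.57. For comparison, the span was 0.02 for miR-144 and miR-451, 0.47 for miR-221 and miR-222, 1.28 for miR-106b, miR-93 and miR-25, 1.17 over 6 miRNAs of the miR-17 cluster and 1.90 for miR-143 and miR-145. It was 0.36 for miR-200c and miR-141, 0.38 for miR-23a, miR-27a-3p and miR-24-3p, 0.50 for miR-199a-3p and miR-214, and 1.04 for miR-200a, miR-200b and miR-429. These are also cut from shared transcripts, although some have further copies elsewhere in the genome. The reads of miR-27a-3p (22717 and 9647) were also counted for miR-27b, which had the same numbers. A span tends to grow with the number of miRNAs in a group, so groups of unlike size are not directly comparable. The span of the members rests on 5 and 4 reads of miR-183 and miR-96 at peak lactation.

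The seed UUGGCAC of miR-96 is also that of miR-1271, which is not a member of the cluster. It had 79 reads in the D library and 34 in the P library, and its log2 fold change of -1.30 (interval -1.87 to -0.72) lies above the interval of miR-96. In the D library miR-1271 held 51.3% of the 154 reads with this seed (interval 43.5 to 59.1%). At peak lactation it held 89.5% of 38 reads (interval 75.9 to 95.8%). Summed over both miRNAs, the seed changed by -2.10 (interval -2.61 to -1.59), against -4.31 for miR-96 alone. These values are per clean read, where conserved miRNA reads as a whole changed by -2.08 and the median of the 257 was -1.44. The interval of the summed seed included -2.08, and that of miR-1271 included -1.44 and lay above -2.08. The summed fall was thus near that of conserved miRNA reads as a whole and depends on the denominator.

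The 3′ ends differed between the members. For miR-96, 50 of 75 reads in the D library were identical to the listed sequence (66.7%, interval 55.4 to 76.3%), 21 were shorter and none continued past the listed end (interval up to 4.87%). For miR-183, 52 of 101 reads were identical (51.5%, interval 41.9 to 61.0%), 13 were shorter and 35 were longer. For miR-182, only 149 of 489 reads were identical (30.5%, interval 26.6 to 34.7%), 226 were shorter and 85 were longer. Over 216 miRNAs with at least 50 reads in the D library, the median of this share was 44.3%, so the interval of miR-96 lay above it, that of miR-183 included it and that of miR-182 lay below. Where a read continued past the listed end, the next base was G in 32 of 35 reads of miR-183 and in 81 of 85 reads of miR-182. The other reads, 29 of miR-182, 4 of miR-96 and 1 of miR-183, left the listed sequence before its end. In 14 of those 29 and 3 of those 4 reads, only A followed the matching stretch.

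The most frequent tags of miR-182 in the D library show this spread of ends, again with the seed in capitals. They had, from the top, 149, 108, 77, 36 and 32 reads.
24 nt: tTTGGCAAtggtagaactcacact
23 nt: tTTGGCAAtggtagaactcacac
22 nt: tTTGGCAAtggtagaactcaca
25 nt: tTTGGCAAtggtagaactcacactg
26 nt: tTTGGCAAtggtagaactcacactgg

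At peak lactation, the same tag of 24 nt led with 14 of 36 reads (38.9%, interval 24.8 to 55.1%), followed by the tag of 23 nt with 7 reads. Of the 35 tags of miR-182 in the D library and the 12 at peak lactation, 7 were found in both libraries. These 7 held 83.0% of the miR-182 reads of the D library and 86.1% of those at peak lactation. The tag identical to the listed sequence also led at peak lactation for miR-183, with 3 of 5 reads, and for miR-96, with 3 of 4 reads.

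**Figure D3:**
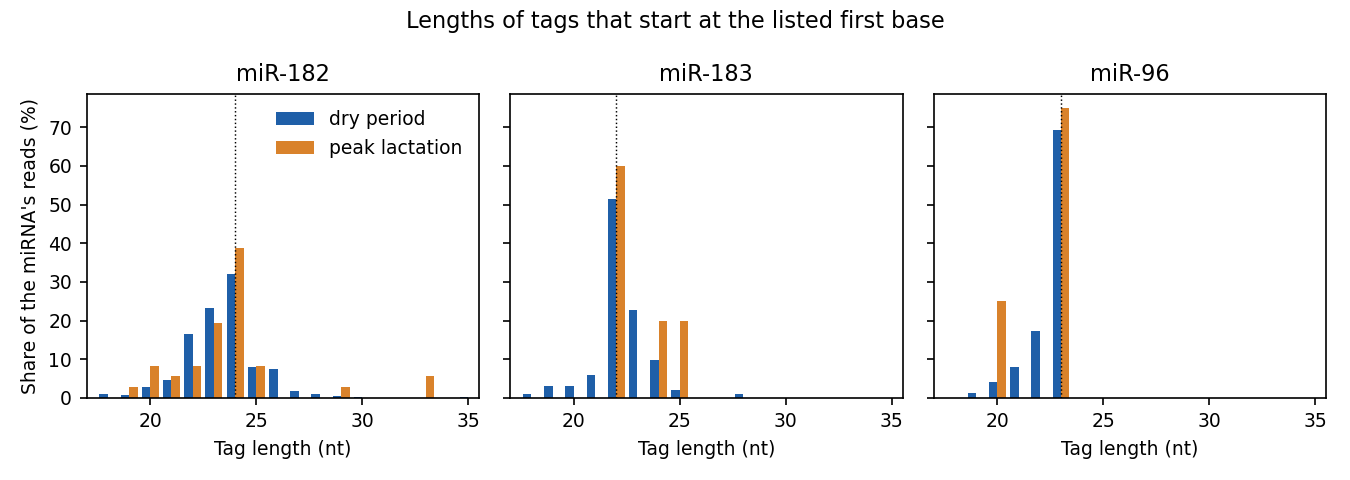
Share of each miRNA's reads (vertical axis, %) by tag length (nt) for miR-182, miR-183 and miR-96 in the dry period library (blue; 489, 101 and 75 reads) and the peak lactation library (orange; 36, 5 and 4 reads). Dotted lines mark the listed lengths of 24, 22 and 23 nt; the reads of miR-182 spread over more lengths than those of miR-96.

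A further group of tags began 1 base after the listed start of miR-183 and was not part of the counts above. They numbered 54 reads in the D library, or 34.2% of the reads with either start or within 2 nt of it (interval 27.2 to 41.9%). At peak lactation there were 3 such reads of 8. The same shift was seen in only 3 reads of miR-182 (0.61%, interval 0.21 to 1.77%) and in none of miR-96, where 75 reads had the listed start (interval up to 4.81%). Over the 216 miRNAs with at least 50 reads in the D library, the median share of tags starting 1 base later was 0.26%, and miR-183 ranked 5 from the highest. The commonest tags of either start are shown, with bases 2 to 8 of each tag in capitals. The first had 52 reads in the D library, the second 20 and the third 16.
listed start, 22 nt: tATGGCACtggtagaattcact
1 base later, 23 nt: aTGGCACTggtagaattcactga
1 base later, 22 nt: aTGGCACTggtagaattcactg

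The shift moves bases 2 to 8 from ATGGCAC to TGGCACT, which is the seed of none of the 346 listed miRNAs. The shifted reads also ended later. Of them 45 of 54 ended past the listed end (83.3%, interval 71.3 to 91.0%), against 36 of 101 reads with the listed start (35.6%, interval 27.0 to 45.4%), and these intervals were apart. The mean lengths were nearly equal, at 22.3 nt for either start. The shifted reads changed by -4.25 on the log2 scale (interval -5.85 to -2.66), close to the -4.42 of reads with the listed start. With both starts, miR-183 had 155 and 8 reads (10.4 and 0.51 RPM), a log2 fold change of -4.36 (interval -5.36 to -3.35). The ratio of miR-183 to miR-96 reads in the D library was then 2.07 in place of 1.35.

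**Figure D4:**
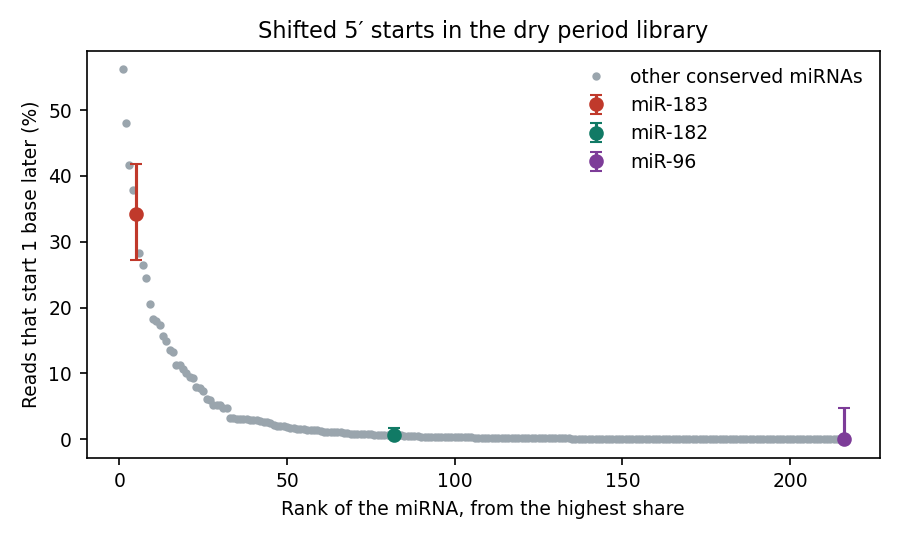
Share of reads that start 1 base after the listed first base (vertical axis, %) for the 216 conserved miRNAs with at least 50 reads at the listed start in the dry period library, ordered from the highest. Coloured points with 95% Wilson intervals mark miR-183 at 34.2%, miR-182 at 0.61% and miR-96 at 0%.

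The counting rule left out tags that departed from the listed sequence within the first 18 nt. For miR-182, 8 reads in the D library matched for exactly 18 nt and were counted, none matched for exactly 17 nt, and 51 reads matched for exactly 16 nt and were left out. For miR-183 and miR-96, at most 1 read lay at any of these lengths in either library. Positions were counted from 1 at the 5′ end, with the listed base given first. The reads of miR-182 that matched for 16 nt nearly all carried C17T. In the D library 34 reads had C17T alone, 16 had C17T with T18C, and 2 had C17T with another substitution. No other substitution of miR-182 in the first 18 positions, alone or in a pair, reached more than 3 reads there. The leading tags of these forms had 20 and 8 reads in the D library, and 3 reads and 1 read at peak lactation. They are shown with the substituted bases in capitals.
C17T: tttggcaatggtagaaTtcacact
C17T and T18C: tttggcaatggtagaaTCcacact

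Tags with C17T, alone or with another substitution, made up 9.61% of 541 miR-182 reads in the D library (interval 7.41 to 12.4%) and 4 of 40 at peak lactation (interval 3.96 to 23.1%). The share thus did not separate between the libraries. Across the 189 miRNAs with at least 100 reads in the D library, the commonest single substitution in the first 18 nt had a median share of 0.79%. For miR-182 that of C17T alone was 6.33% (interval 4.57 to 8.72%), the fourth highest. The 34 reads with C17T alone were also close to miR-183, from which their first 18 nt differed by A2T and C8A only, but after position 18 their leading tag was identical to miR-182. None of the 52 reads with C17T was longer than 24 nt (interval up to 6.88%). Of the 489 reads of listed sequence, 93 were longer than 24 nt (19.02%, interval 15.8 to 22.7%). The source of these tags was not tested.

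**Figure D5:**
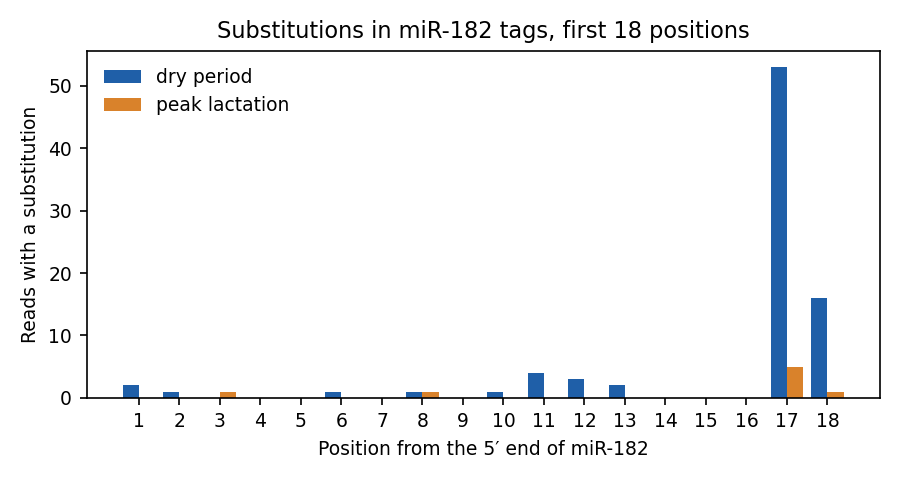
Reads of miR-182 with 1 or 2 substitutions in the first 18 nt, by position from the 5′ end, in the dry period library (blue) and the peak lactation library (orange). Position 17 has 53 reads in the dry period library, position 18 has 16, all of them with C17T, and no other position has more than 4.

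Other miRNAs of the epithelium were more abundant, and their log2 fold changes lay above those of the cluster under the same denominator. Of 6 epithelial miRNAs, the miR-200 family and miR-205, which mark epithelial cells, 3 were lower by more than 1 and none was higher, beside 70.4% lower among all 257, and their median was -1.10 beside -1.44. Per conserved miRNA read none of the 6 was lower and 3 were higher by more than 1, beside 19 lower and 93 higher of the 257. The median was then 0.98 beside 0.64. With DESeq2 size factors none was lower and 1 was higher, beside 47 lower and 30 higher of the 257, and the median was 0.30 beside -0.04. Per clean read the 6 epithelial miRNAs ranged from -0.09 for miR-141 (991 and 986 reads) to -1.99 for miR-429 (1695 and 450 reads). All 6 lay above the interval of miR-182. Their summed level was 2687 RPM in the D library and 1342 RPM at peak lactation, against 44.8 and 2.86 RPM for the cluster. In bulk tissue, fewer cells of a type and less RNA per cell cannot be told apart.

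Among markers of other cell types, those of red blood cells went against the general direction per clean read. Of the 3 red blood cell miRNAs, miR-451 and miR-144 were higher at peak lactation by more than 1. Only 3 of all 257 were, these 2 included. The summed level of the list was 110 RPM in the D library and 190 RPM at peak lactation. In the other lists the shares lower by more than 1 were near the background of 70.4% or rested on 1 miRNA. They were 3 of 4 for skeletal muscle (summed 7241 and 3847 RPM), leukocytes (481 and 176 RPM) and smooth muscle and stroma (21847 and 6490 RPM). For endothelium, miR-126 stood at -0.74 (113 and 67.6 RPM). Medians were -1.61 for skeletal muscle, -1.32 for leukocytes and -2.60 for smooth muscle and stroma, beside -1.44 over the 257. Within smooth muscle and stroma, miR-145, miR-199a-3p and miR-214 stood at -2.76, -2.96 and -2.45, and miR-143 at -0.86. With DESeq2 size factors, 3 of 4 of that list were lower by more than 1, beside 18.3% of the 257. Of skeletal muscle 1 of 4 was, and of leukocytes and endothelium none. Per conserved miRNA read no miRNA of these lists was lower by more than 1, beside only 7.39% of the 257. The log2 fold changes of the sums were then 1.17 for skeletal muscle, 0.63 for leukocytes and 0.33 for smooth muscle and stroma. That of miR-126 was 1.34 and that of red blood cells 2.87. A sum follows the most abundant miRNA of its list. At peak lactation miR-1 held 60258 of 60444 reads of skeletal muscle, and miR-143 held 74024 of 101983 of smooth muscle and stroma. Medians per conserved miRNA read were 0.47 for skeletal muscle, 0.76 for leukocytes and -0.52 for smooth muscle and stroma, beside 0.64 over the 257. No miRNA of these lists was at 0 in either library. The part of cell composition in the change of the cluster was not tested. The conserved miRNAs nearest to the summed cluster in log2 fold change, among 188 others with at least 100 reads in 1 library, were let-7b (-3.79), miR-138 (-3.77) and miR-196a (-3.71), a likeness that rests on 2 libraries only.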

How the data were processed

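Per the labels and the study's text, mammary gland material from 3 goats was pooled per stage and sequenced with Solexa technology. The study's results describe pooling of RNA, and its methods describe pooling of samples before RNA was isolated. The authors filtered out reads of low quality, with adaptor faults, without an insert, with poly(A) or shorter than 18 nt, collapsed identical reads and deposited each tag with its raw count of clean reads and its length as another number. The tags are not aligned, and no genome build is given in the sources used here. A tag was counted for the listed miRNA to which it was identical over the most bases, 18 or more, counted from the 5′ end, and ties were counted for each. Only sequences, no counts, were taken from the study's list. RPM is reads per 1000000 clean reads. A count of 0 became 0.01 RPM, and miRNAs under 1 RPM in both libraries were left out, which removed 89 of 346. A miRNA counted as lower at a log2 fold change under -1. No p was computed, because each stage has 1 library. Intervals and the floor of 3 reads cover counting error only, and reads of PCR copies are not independent molecules. The named miRNAs were the members, seed relatives, fixed lists of cell type and cluster miRNAs, and the 3 nearest in change. miR-34a, miR-181c, miR-181d and miR-1296 were named after their values were seen, as were the substitution and shifted-start tags. The members and lists were chosen with earlier results of these data known. Counting was tested on simulated data. Alternatives covered 4 counting rules, 4 other denominators (among them edgeR 4.0.16 TMM factors and DESeq2 1.42.0 size factors, in R 4.3.3), 1 read added and other filters. Python 3.11.15, numpy 2.4.6 and matplotlib 3.10.9 were used. The passenger strands and hairpins of the cluster were not analysed here.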

Additional observations from a re-analysis of the deposited data

Results flagged for a closer look

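Reads outside the counting rule were looked at for each member and exceeded the 3 reads that a count of 0 allows in the following cases. Tags of miR-183 that start 1 base later had 54 reads in the dry period library. Tags of miR-182 with C17T had 34 reads, and tags with C17T and T18C had 16 reads, in the same library. The other shifted starts and substitutions of the members, and all of those at peak lactation, stayed at or below 3 reads.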

How the results depend on the processing

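All log2 fold changes of the members stayed below -1 under every alternative run. They ranged from -4.45 to -2.33 for miR-183, from -4.37 to -2.23 for miR-96, from -3.89 to -1.76 for miR-182 and from -3.99 to -1.88 for the cluster. These values left their counting interval only with other denominators. Per conserved miRNA read they were -2.33, -2.23, -1.76 and -1.88 in that order, and 19 conserved miRNAs were lower by more than 1. Per read of 21 to 23 nt, miR-182 was at -3.01 and the cluster at -3.13, with 95 lower. With TMM factors, miR-183 was at -3.12, miR-182 at -2.55 and the cluster at -2.67, with 52 lower. With DESeq2 size factors the values were -3.02, -2.91, -2.45 and -2.57, with 47 lower. With identical tags only, the dry period shares of the cluster reads were 20.7% for miR-183, 19.9% for miR-96 and 59.4% for miR-182, because miR-182 loses more reads of other lengths. The other 52 of 72 values stayed within their interval or, for counts, within 1.5 times. Among them was miR-182 with its C17T tags counted as well (-3.84), an alternative chosen after seeing the data. No paired analysis was possible because each stage has 1 library, and no replicate could be left out. Depth limits miR-183 and miR-96, with 5 and 4 reads at peak lactation.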
